A study of Rattus norvegicus with 15 samples.

Results

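The liver-enriched transcription factors Hnf4a, Onecut1, Onecut2, Foxa1, Foxa2, Foxa3, Cebpa and Cebpb were followed across 3 groups of rat livers. These genes were chosen by name, as the hepatocyte nuclear factor 4, ONECUT, FOXA and C/EBP factors that set hepatocyte and bile duct identity. The choice was made with earlier results of these data known. Of the 8 named genes, 7 had a row among the 21576 genes of the deposited expression table and all 7 passed the low-count filter. Cebpb was not analysed here.

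The 15 RNA-seq libraries, 5 per group, came from livers of male Sprague-Dawley rats whose age is not given in the sources used here. The CON group was kept on ordinary chow. The HFD group received a lipid-raising feed made of 66% base forage, 16.7% sucrose, 8.3% yolk, 7% lard and 2% cholesterol. It also held 0.3% sodium cholate, a bile salt, and 0.2% propylthiouracil, a blocker of thyroid hormone synthesis. After 4 weeks of feed, HFD rats received saline for 4 more weeks. ZXD rats had the same first 4 weeks and in the later 4 weeks were given Zexie Decoction (ZXD), a herbal preparation of Alisma and Atractylodes rhizomes, at 2.2 g per kg per day by mouth. Whether the feed went on through the later weeks is not given plainly in the sources used here, and a simvastatin group is not analysed here. Every comparison with CON therefore sets sucrose, yolk, lard, cholesterol, bile salt and propylthiouracil together against chow, and these cannot be told apart. The labels name 10 rats per group without tying libraries to rats, so p-values measure the spread between these libraries, which may be technical.

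As background, hepatocyte identity is held by a network of factors that bind each other's genes as well as the genes of plasma proteins and metabolic enzymes. HNF4A is a nuclear receptor and a central hepatocyte factor. FOXA1, FOXA2 and FOXA3 are forkhead factors able to open compacted chromatin in the embryonic liver. ONECUT1, also called HNF6, and its relative ONECUT2 act in the decision between hepatocyte and bile duct cell, and hepatic Onecut1 is known to respond to growth hormone. C/EBP-alpha, from Cebpa, is a basic leucine zipper factor of the resting, metabolically active hepatocyte.

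ONECUT1 is known to bind DNA around a core ATTGAT and to act on the promoters of Foxa2 and Hnf4a. The upstream sequence of these genes is therefore shown as context for the lower Onecut1 transcript described next, with the core in capitals wherever it occurs on either strand (ATTGAT or ATCAAT). RefSeq entries of the GRCr8 build matched 5 of the 8 named genes with 6 start sites. Each window holds the 250 bases before a transcript start, written in the direction of the gene.

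Foxa2, chr3:155927509-155927758, minus strand: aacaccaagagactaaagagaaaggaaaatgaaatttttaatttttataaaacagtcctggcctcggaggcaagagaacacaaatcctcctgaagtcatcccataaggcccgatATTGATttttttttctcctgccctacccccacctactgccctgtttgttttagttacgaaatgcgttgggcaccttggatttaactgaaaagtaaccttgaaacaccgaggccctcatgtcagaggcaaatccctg
Hnf4a, upstream start, chr3:172605970-172606219, plus strand: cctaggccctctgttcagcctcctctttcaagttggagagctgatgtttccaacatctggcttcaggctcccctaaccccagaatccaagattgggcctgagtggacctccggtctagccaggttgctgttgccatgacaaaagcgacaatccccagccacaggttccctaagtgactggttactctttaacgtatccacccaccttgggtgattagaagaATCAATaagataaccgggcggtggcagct
Cebpa, chr1:96896334-96896583, plus strand: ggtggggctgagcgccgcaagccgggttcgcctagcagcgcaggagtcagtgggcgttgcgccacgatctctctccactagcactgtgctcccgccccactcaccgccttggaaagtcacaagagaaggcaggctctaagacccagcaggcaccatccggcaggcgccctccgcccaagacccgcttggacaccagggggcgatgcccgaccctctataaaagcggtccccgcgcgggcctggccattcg

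The core began 136 bases before the Foxa2 start and 29 bases before the upstream Hnf4a start. Adult liver is known to use mainly the downstream Hnf4a start, and the upstream one is used in pancreas and fetal liver. The core letters were not in the windows of the downstream Hnf4a start, Cebpa, Foxa3 or Cebpb, and the Cebpa window is printed as such a case. Of 33469 windows of the same length, 7.10% held the core on either strand. Its presence in a window is a description, and binding was not tested.

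Libraries held 12552449 to 14228052 counts. Scaling factors (trimmed mean of M-values, TMM) were 0.793 to 0.867 in CON and 1.01 to 1.28 in the other groups, and scaling by library totals instead moved the all-gene median log2 fold change of HFD versus CON from 0.02 to 0.44 and that of ZXD versus CON from 0.03 to 0.46. Changes against CON are therefore relative to the TMM scale, and CPM values below, counts scaled to a common library size, use it. Hepatocyte markers were abundant, as the label liver says, with Alb at 13800 to 114000 CPM, while the duct keratins Krt7 (0 to 4.33 CPM, at 0 in some libraries of each group) and Krt19 (0.975 to 10.7 CPM) were low. The summed level of 10 hepatocyte markers was 171000 to 205000 CPM in CON, 86600 to 118000 CPM in HFD and 62900 to 116000 CPM in ZXD. Alb made up most of the CON sum, at a mean of 104000 CPM in CON, 39300 CPM in HFD and 33700 CPM in ZXD. By edgeR 3 of these 10 fell and 0 rose in HFD versus CON, with a median log2 fold change of -0.53 that was -0.11 on library totals. For 16 macrophage markers the sums were 340 to 934 CPM in CON, 589 to 3960 CPM in HFD and 902 to 7550 CPM in ZXD, with HFD 2 and HFD 5 the highest of the HFD group. Cd74 had the highest mean of the 16 in HFD (1030 CPM) and ZXD (1450 CPM), beside 99.9 CPM in CON. Against CON, 6 of these 16 rose in HFD (1 without HFD 2 and HFD 5) and 13 in ZXD. Vsig4 (-1.09), Cd163 (-0.69) and Clec4f (-0.07) were below 0 in HFD versus CON, without a call. Over all tested genes 10.0% rose and 10.9% fell in HFD versus CON, and 17.9% rose and 14.8% fell in ZXD versus CON. Of 11 lymphocyte markers tested 6 rose in HFD and 10 in ZXD, but 0 in HFD without HFD 2 and HFD 5 and 2 in HFD by limma voom. The summed level of 8 endothelial markers was 85.9 to 369 CPM in CON, 80.5 to 335 CPM in HFD and 366 to 578 CPM in ZXD. Every ZXD library was above every HFD library in that sum. By edgeR 0 of the 8 were called in HFD versus CON, 0 in ZXD versus HFD, where the median was 1.21 with 8 of 8 above 0, and 3 rose in ZXD versus CON. DESeq2 called 2 higher in ZXD versus HFD and 6 in ZXD versus CON. The part of these cells in the levels of the 7 factors was not tested. In such bulk livers fewer cells of a type and less RNA per cell cannot be told apart.

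In chow-fed livers, per-length levels (deposited FPKM, the count divided by gene length and library total) placed Cebpa and Hnf4a far above the other factors. Cebpa stood at 140 ± 30.8 FPKM (SD, n = 5) and Hnf4a at 130.9 ± 6.9, and these 2 did not differ beyond their spread. Onecut1 followed at 41.4 ± 13.9 FPKM, then Foxa1 at 26.2 ± 8.64, Foxa3 at 19.3 ± 3.77, Foxa2 at 18.2 ± 8.73 and Onecut2 at 17.6 ± 2.81. The last 4 overlapped one another. In all 10 libraries of feed-treated rats Hnf4a was first, Cebpa second and Onecut1 last of the 7 genes, whereas Onecut1 was in place 3 in 4 CON libraries and in place 4 in CON 3. Among the tested genes, mean Onecut1 FPKM went from percentile 89.1 in CON to percentile 20.4 in HFD and 21.1 in ZXD.

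Livers of HFD and CON rats were compared for what the lipid-raising feed changed in these factors. Onecut1 fell by far the most, Cebpa, Foxa1 and Onecut2 fell by smaller amounts, and Hnf4a, Foxa2 and Foxa3 did not pass the test. By edgeR's quasi-likelihood test at an adjusted p under 0.05 over all 13163 tested genes, 4 of 7 members were lower and 0 higher. Over all tested genes 10.9% were lower, 10.0% higher and 21.0% called in either direction. The members' median log2 fold change was -0.68, beside 0.02 over all genes. On library totals 1 member was lower, and 1 was lower without HFD 2 and HFD 5 together. That member was Onecut1 in both cases.

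Onecut1 stood at 137.8, 89.1, 100.7, 90.8 and 170.8 CPM in CON 1 to CON 5. In HFD 1 to HFD 5 it was 9.25, 2.37, 1.25, 5.38 and 1.29 CPM, from 143, 34, 17, 79 and 19 reads. The groups do not overlap, and the highest HFD library lay far under the lowest CON library. Group means were 117.8 ± 35.5 CPM in CON and 3.91 ± 3.43 in HFD, which gave a log2 fold change of -4.90 (SE 0.56, 95% interval -6.10 to -3.71, edgeR adjusted p = 7.06e-05), or 29.9-fold lower. Among all tested genes 0.106% had a log2 fold change this low or lower. Across the 24 alternatives the log2 fold change stayed between -5.51 and -4.47 and the call held in each. With HFD 2 and HFD 5 left out it was -4.47 (edgeR adjusted p = 0.00143).

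Onecut2, the paralogue, was lower too, but by much less. It was 349.5, 296.3, 379.9, 281.1 and 379.4 CPM in CON 1 to 5 and 253.6, 194.5, 225.1, 220.4 and 160.9 CPM in HFD 1 to 5. The groups do not overlap, as for 15.1% of all tested genes. The log2 fold change was -0.68 (SE 0.22, 95% interval -1.14 to -0.21, edgeR adjusted p = 0.0399), a call close to the threshold. Leaving out HFD 2, HFD 3, HFD 4, HFD 5, ZXD 5 or any single CON library ended it (edgeR adjusted p up to 0.0988), as did leaving out HFD 2 and HFD 5 together (adjusted p = 0.228), and on library totals its value was -0.26 (adjusted p = 0.272).

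The balance within the ONECUT pair differed between HFD and CON. The log2 ratio of Onecut2 to Onecut1 in the same library, which needs no scaling between libraries, was 1.34, 1.73, 1.91, 1.63 and 1.15 in CON 1 to 5 and 4.75, 6.27, 7.33, 5.32 and 6.81 in HFD 1 to 5. All 5 HFD libraries were above all CON libraries. The difference was 4.54 (SE 0.49, two-sided exact permutation p = 0.00794, the smallest 5 against 5 libraries can give, adjusted p = 0.0476 over 12 ratio tests). Without HFD 2 and HFD 5 it was 4.25, with an adjusted p of 0.0536 from an exact permutation test of 5 against 3 libraries. Onecut1 made up 69.3% ± 4.46 of the summed ONECUT FPKM in CON and 9.97% ± 6.71 in HFD (SD, n = 5). FPKM divides by gene length, 15783 bases for Onecut2 and 2360 for Onecut1, whereas the log2 ratio above uses CPM without length. The summed ONECUT level went from 59.0 ± 16.2 to 16.5 ± 3.90 FPKM, which is on library totals and not on the TMM scale.

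**Figure D1:**
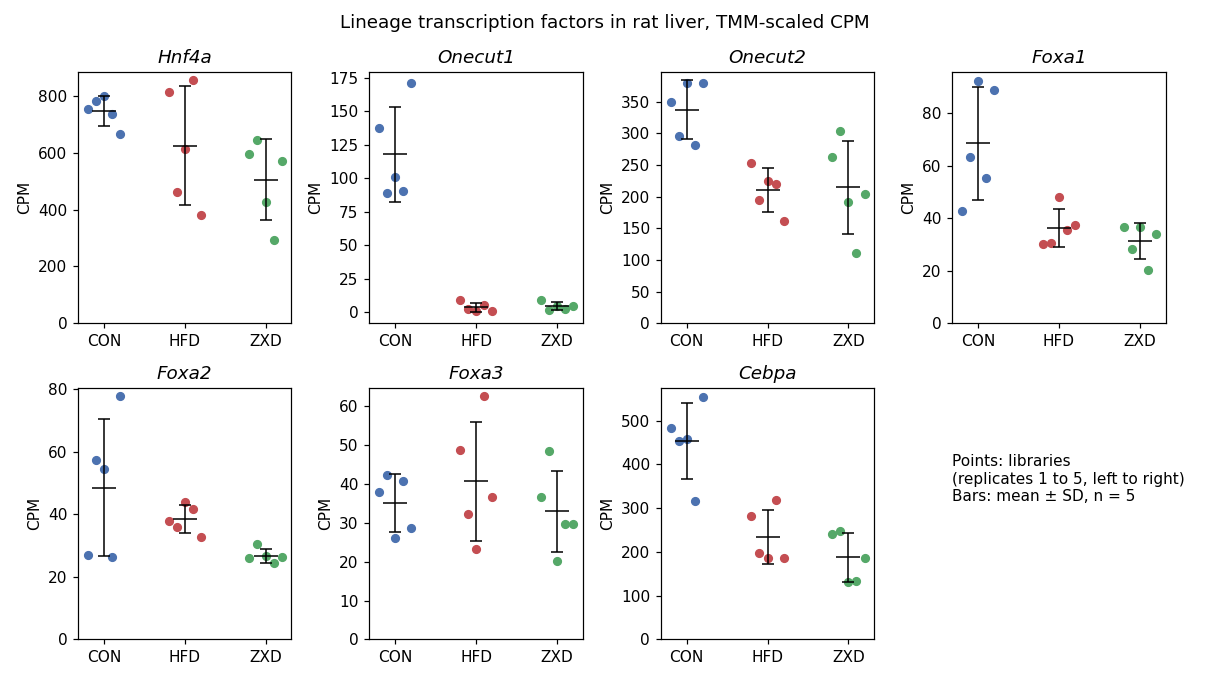
TMM-scaled CPM (vertical axes, linear) of the 7 measured factors in CON, HFD and ZXD livers; points are libraries and bars the mean ± SD of 5. Onecut1 lies at 89.1 to 171 CPM in CON and at or under 9.25 CPM in every HFD and ZXD library, while the Hnf4a and Foxa3 ranges of CON and HFD overlap.

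Cebpa was 483.3, 454.3, 459.1, 315.6 and 553.4 CPM in CON 1 to 5. In HFD 1 to 5 it was 282.8, 197.9, 186.4, 318.4 and 185.6 CPM. The groups met at 1 point, since HFD 4 lay just above CON 4, and the other 4 HFD libraries were below every CON library. The log2 fold change was -0.95 (SE 0.23, 95% interval -1.44 to -0.47, edgeR adjusted p = 0.0102), 1.93-fold lower. The call was lost on library totals (-0.54, edgeR adjusted p = 0.0510) and without HFD 2 and HFD 5 together (-0.79, adjusted p = 0.0935).

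Hnf4a did not pass in this comparison. CON libraries 1 to 5 were tightly placed at 753.7, 781.3, 799.6, 737.6 and 665.1 CPM. HFD 1 to 5 were wide apart at 814.1, 460.4, 611.9, 856.8 and 380.9 CPM, on both sides of the CON range. The log2 fold change of -0.26 (SE 0.24, 95% interval -0.77 to 0.25, edgeR adjusted p = 0.457) did not pass, and it was 0.16 on library totals. Over all 15 libraries, the 4 with the lowest Hnf4a, ZXD 4, HFD 5, ZXD 3 and HFD 2, were the 4 with the highest summed macrophage markers. These held 293 to 460 CPM of Hnf4a and 3000 to 7550 CPM of macrophage markers, an order noticed after the values were seen, and the part of these cells in the Hnf4a level was not tested. The log2 ratio of Cebpa to Hnf4a was lower by 0.64 in HFD than in CON (-1.38 ± 0.26 against -0.74 ± 0.34, exact permutation p = 0.0238, adjusted p = 0.0571), which did not pass. Without CON 4 it was 0.76 lower (exact permutation, adjusted p = 0.0476).

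Of the FOXA factors, Foxa1 alone passed. It was 42.8, 63.3, 92.1, 55.4 and 88.9 CPM in CON 1 to 5 and 30.1, 30.6, 48.0, 35.3 and 37.4 CPM in HFD 1 to 5. Of the HFD libraries, 4 were below every CON library and HFD 3 lay above CON 1. The log2 fold change was -0.92 (SE 0.22, 95% interval -1.38 to -0.45, edgeR adjusted p = 0.00989), 1.89-fold lower. It was -0.50 on library totals (adjusted p = 0.0641) and -0.86 without HFD 2 and HFD 5 (adjusted p = 0.0694), and the call was lost in both.

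Foxa2 varied within chow-fed livers more than between the groups. It was 27.1, 57.4, 54.4, 26.3 and 77.7 CPM in CON 1 to 5 and 37.8, 36.0, 44.0, 41.6 and 32.8 CPM in HFD 1 to 5, inside the CON range. Its log2 fold change was -0.34 (SE 0.24, 95% interval -0.85 to 0.17, edgeR adjusted p = 0.320), and 0.07 on library totals. Foxa3, the forkhead factor most tied to adult hepatocytes, was 26.0 to 42.4 CPM in CON and 23.3 to 62.6 CPM in HFD, with a log2 fold change of 0.21 (SE 0.26, 95% interval -0.34 to 0.77, edgeR adjusted p = 0.577).

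Foxa1 also made up less of the FOXA transcripts. It was 40.6% ± 6.54 of the summed FOXA FPKM in CON and 27.9% ± 7.12 in HFD (SD, n = 5), while Foxa3 was 32.1% ± 11.4 and 43.5% ± 10.7. The log2 ratio of Foxa1 to Foxa2 was 0.56 ± 0.39 in CON and -0.10 ± 0.24 in HFD, a difference of -0.66 (SE 0.20, exact permutation p = 0.0159, adjusted p = 0.0476). This ratio lost its call without CON 1, CON 3, CON 4, CON 5 or any single HFD library (exact permutation, adjusted p up to 0.114). The ratio of Foxa3 to Foxa2 did not pass, at a difference of 0.37 (SE 0.48, exact permutation p = 0.460, adjusted p = 0.537).

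**Figure D2:**
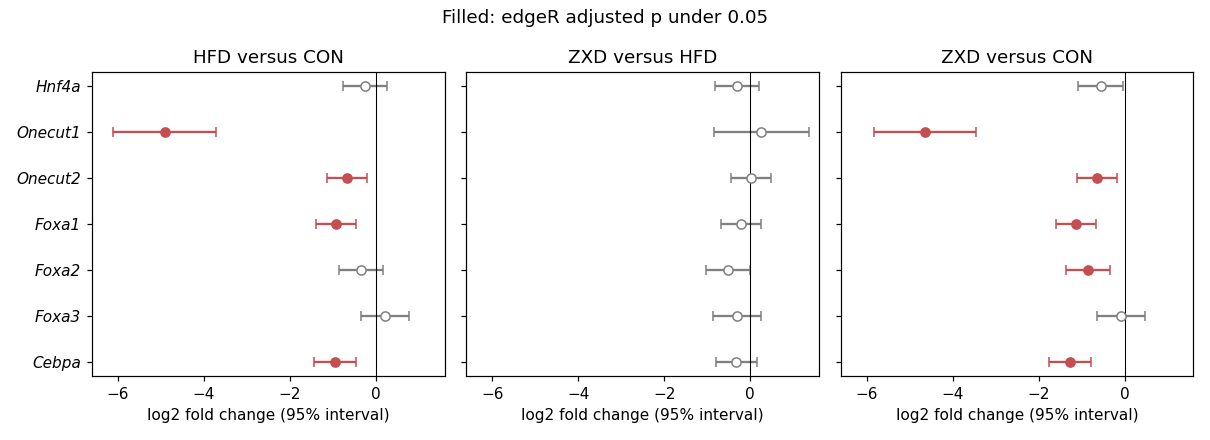
Log2 fold change (horizontal axis) and 95% interval of each factor in the 3 comparisons, filled where the edgeR adjusted p was under 0.05. Onecut1 stands apart at -4.90 and -4.64 against CON, and no factor is filled in ZXD versus HFD.

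The ZXD against HFD comparison asked whether the decoction changed these factors in rats given the feed. No member passed: 0 of 7 were called, as were 0% of all 13163 genes by edgeR. Limma voom called 0 genes as well, DESeq2 called 348, and 2167 (16.5%) had an unadjusted edgeR p under 0.05. None of the 7 was called by edgeR, limma voom or DESeq2. The members' median log2 fold change was -0.31, beside 0.02 over all genes. Onecut1 stayed low, at 9.08, 2.10, 4.82, 2.50 and 5.0 CPM in ZXD 1 to 5 (mean 4.70 ± 2.78), inside the HFD range. Its log2 fold change was 0.26 (SE 0.52, 95% interval -0.84 to 1.36, edgeR adjusted p = 0.817). The upper end of that interval is far under the 4.90 log2 units that part HFD from CON. Without ZXD 1 the value was -0.13.

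For 1 of the 7, Foxa2, the HFD and ZXD libraries did not overlap, as for 3.68% of all tested genes. ZXD 1 to 5 had 26.0, 30.5, 26.5, 24.4 and 26.4 CPM, each under the lowest HFD library at 32.8 CPM. The log2 fold change was -0.52 (SE 0.24, 95% interval -1.03 to -0.01) and did not pass over all genes (edgeR adjusted p = 0.295). The summed endothelial markers, at 366 to 578 CPM in ZXD and 80.5 to 335 CPM in HFD, also did not overlap between these groups, and their part in the Foxa2 level was not tested. Intervals of the others were -0.80 to 0.16 for Cebpa, -0.82 to 0.21 for Hnf4a, -0.44 to 0.49 for Onecut2, -0.68 to 0.24 for Foxa1 and -0.86 to 0.25 for Foxa3, so a change of 1 log2 unit in either direction lies outside each of these 5.

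None of the 4 log2 ratios within a library passed between ZXD and HFD. Onecut2 to Onecut1 was 6.10 ± 1.06 in HFD and 5.58 ± 0.87 in ZXD (difference -0.52, SE 0.61, exact permutation p = 0.421, adjusted p = 0.537). Cebpa to Hnf4a was -1.38 ± 0.26 and -1.42 ± 0.23 (difference -0.04, SE 0.16, exact permutation p = 0.786, adjusted p = 0.786). Foxa1 to Foxa2 differed by 0.29 (SE 0.19, exact permutation p = 0.159, adjusted p = 0.272).

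**Figure D3:**
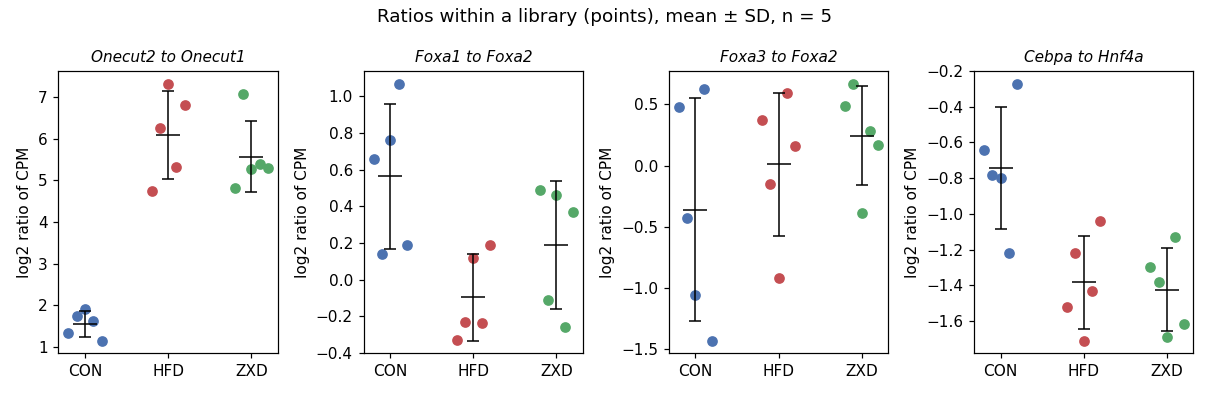
Log2 ratio of CPM between 2 factors in the same library (vertical axes), with points for libraries and bars for the mean ± SD of 5. Onecut2 to Onecut1 is 1.15 to 1.91 in CON and 4.75 to 7.33 in HFD, and the Foxa3 to Foxa2 values of the 3 groups overlap.

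The ZXD against CON comparison, which shares its CON libraries with the first, set feed and decoction together against chow. By edgeR 5 of 7 members were lower and 0 higher, where 14.8% of all tested genes were lower, 17.9% higher and 32.7% called in either direction, with a median of -0.86 beside 0.03 over all genes. On library totals 3 were lower. Onecut1 was 25-fold lower (log2 fold change -4.64, 95% interval -5.83 to -3.46, SE 0.55, edgeR adjusted p = 8.72e-05). Cebpa, at 242.1, 246.9, 131.6, 133.8 and 185.1 CPM in ZXD 1 to 5, was 2.41-fold lower (log2 fold change -1.27, SE 0.23, edgeR adjusted p = 0.00160), and no ZXD library reached the CON range.

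Foxa1 was 36.5, 28.3, 36.4, 20.4 and 34.1 CPM in ZXD 1 to 5, all below CON, at -1.14 (SE 0.22, edgeR adjusted p = 0.00235). Foxa2 passed here at -0.86 (SE 0.24, edgeR adjusted p = 0.0153), although its ZXD libraries overlapped those of CON 1 and CON 4, and it did not pass on library totals (-0.45, adjusted p = 0.142). Onecut2 was 262.1, 303.5, 191.0, 111.6 and 204.3 CPM in ZXD 1 to 5, at -0.65 (SE 0.22, edgeR adjusted p = 0.0329), a call lost without CON 1, CON 3, CON 5, ZXD 3, ZXD 4 or ZXD 5 (adjusted p up to 0.0737) and on library totals (-0.26, adjusted p = 0.266). These calls of Foxa2 and Cebpa against CON do not show a difference from HFD, where neither passed.

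Hnf4a was 594.6, 643.6, 425.5, 293.3 and 570.2 CPM in ZXD 1 to 5, below all CON libraries. Groups did not overlap for 18.0% of tested genes. The log2 fold change did not pass, at -0.56 (SE 0.24, 95% interval -1.08 to -0.05, edgeR adjusted p = 0.0838). It passed by DESeq2 (adjusted p = 0.0467), without ZXD 2 (edgeR adjusted p = 0.0480) and without HFD 2 and HFD 5 (0.0457). Foxa3 differed by -0.09 (SE 0.26, edgeR adjusted p = 0.819), or 0.32 on library totals, and did not pass. The ratio of Cebpa to Hnf4a was lower than in CON by 0.68 (SE 0.18, exact permutation p = 0.0159, adjusted p = 0.0476), lost without CON 1, CON 3, CON 5, ZXD 1, ZXD 2, ZXD 3 or ZXD 5 (adjusted p up to 0.0714). Onecut2 to Onecut1 was higher by 4.02 (SE 0.41, exact permutation p = 0.00794, adjusted p = 0.0476).

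With group means removed, 2 of 21 pairs of factors passed a test of Pearson correlation over the 15 libraries, both with Onecut2. Pearson r was positive in 19 pairs, with a median of 0.39, and the same over other genes was not computed. Onecut2 varied with Hnf4a (r = 0.80, permutation p = 0.00110, adjusted 0.0231; Spearman rho = 0.74, permutation p = 0.00703, adjusted 0.0492). Without ZXD 4 and HFD 5, the libraries farthest from the Hnf4a median, r was 0.57. Onecut2 also varied with Cebpa (r = 0.75, permutation p = 0.00257, adjusted 0.0270; rho = 0.79, permutation p = 0.00344, adjusted 0.0492), with r = 0.74 without ZXD 4 and HFD 5 and r = 0.70 on library totals (adjusted 0.0679). Hnf4a and Cebpa passed by Spearman (rho = 0.75, permutation p = 0.0069, adjusted 0.0492) but not by Pearson (r = 0.73, permutation p = 0.0104, adjusted 0.0731). Their r was 0.69 without ZXD 4 and HFD 5. Foxa1 and Foxa3 had the lowest r, -0.48 (permutation p = 0.0683, adjusted 0.159; rho = -0.52, permutation p = 0.0566, adjusted 0.149; r = -0.38 without CON 3 and CON 5). ZXD 4 and HFD 5 were among the libraries with high macrophage markers named above.

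Over the 15 libraries, the 3 genes most like each called factor were found among 9557 genes by Pearson r of log2 CPM, as a description without a test. For Onecut1 these were Ttc39c (r = 0.957), Paqr9 (0.953) and Acss2 (0.951), an acetyl-CoA synthetase. With group means removed, r fell to 0.63, 0.46 and 0.48, so their likeness lay mostly between the groups. Paqr9 stood at 76.6 ± 12.9 CPM in CON, 7.57 ± 3.29 in HFD and 7.84 ± 2.39 in ZXD. For Onecut2 they were Rida, Adgra3 and Poldip2 (r = 0.965, 0.951 and 0.949), for Foxa1 Tmem150a, Dgkq and Tsta3 (0.962, 0.949 and 0.947), and for Cebpa Cabp2, Ppp1r15b and Gpx1, a glutathione peroxidase (0.955, 0.945 and 0.942). Those of Onecut2 kept an r of 0.90 to 0.95 with group means removed.

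Other hepatocyte transcription factors were mostly not called in HFD versus CON, as for tested genes in general. Of 13 tested, 1 rose and 1 fell by edgeR, beside 10.0% higher and 10.9% lower over all tested genes. Their median log2 fold change was -0.20. On library totals 2 rose and 0 fell, with a median of 0.22. DESeq2 called 1 higher and 4 lower, and without HFD 2 and HFD 5 edgeR called 0 in either direction. Atf5, a stress-responsive factor abundant in liver, rose by 0.62 (SE 0.18, edgeR adjusted p = 0.0230), from 196 ± 36.0 to 302 ± 49.8 CPM. Its call was lost without CON 2, CON 3, CON 5 or HFD 2 (adjusted p up to 0.0628) and without HFD 2 and HFD 5 together (0.0572). Zhx2, a repressor of fetal liver genes, fell by 0.67 (SE 0.22, edgeR adjusted p = 0.0401), a call lost on library totals (-0.25, adjusted p = 0.346) and on leaving out CON 2, CON 3, CON 4, CON 5, HFD 2, HFD 3, HFD 5 or ZXD 5 (up to 0.105). It was also lost without HFD 2 and HFD 5 together (0.241), with a replicate block (0.0827) and with the 2 groups compared alone (0.0661). In ZXD versus CON, where 14.8% of all tested genes fell and 17.9% rose, 3 of 13 fell and 0 rose. The median was -0.36, or 0.07 on library totals, where 2 fell and 2 rose. Among those that fell were Hhex, a homeobox factor of liver development (-1.21, SE 0.22, edgeR adjusted p = 0.00160) and Creb3l3, a hepatocyte factor of lipid genes (-0.76, SE 0.25, adjusted p = 0.0323). The Creb3l3 call was lost on library totals (-0.37, adjusted p = 0.180), with a replicate block (0.0624) and without CON 2, CON 3, CON 5, ZXD 3 or ZXD 4 (up to 0.0729).

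Factors of bile duct cells and other epithelia went the other way in HFD. Of 8 tested, 4 rose and 0 fell, beside 10.0% higher and 10.9% lower over all tested genes, with a median of 1.5. Without HFD 2 and HFD 5 the count was 1 and the median 0.51, and limma voom called 1. Klf6, a broadly expressed stress-responsive factor, rose from 37.1 ± 9.68 to 111 ± 36.9 CPM (log2 fold change 1.59, SE 0.27, edgeR adjusted p = 0.00115), a call kept in all 24 alternatives. Ehf and Elf3, epithelial ETS factors, were near the detection floor in CON, at 0.871 ± 0.467 and 1.07 ± 0.472 CPM, and stood at 4.83 ± 3.41 and 3.91 ± 2.98 CPM in HFD. Their log2 fold changes were 2.46 (SE 0.69, edgeR adjusted p = 0.0232) and 1.86 (SE 0.56, adjusted p = 0.0299). Sox9, a marker of bile duct and progenitor cells, completed the 4 at 1.22 ± 0.699 CPM in CON and 5.35 ± 3.40 CPM in HFD (log2 fold change 2.12, SE 0.68, edgeR adjusted p = 0.0399). Each of these 3 calls was also lost without HFD 2 or HFD 5 alone, that of Ehf without CON 3 or CON 5, that of Elf3 without CON 2 or CON 4, and that of Sox9 without CON 1, CON 3, CON 4, CON 5 or HFD 3 (adjusted p up to 0.103). Without HFD 2 and HFD 5 the adjusted p of Ehf, Elf3 and Sox9 was 0.212, 0.408 and 0.293. With a replicate block it was 0.0548, 0.0750 and 0.0680, and by limma voom 0.102, 0.126 and 0.114. In ZXD versus CON 2 of 8 rose and 0 fell by edgeR, beside 17.9% higher and 14.8% lower over all tested genes. Their median was 0.97, while 4 rose on library totals and 1 by limma voom. Of these 2, Klf6 kept its call in all 24 alternatives. The Ehf call (2.16, SE 0.69, edgeR adjusted p = 0.0274) was lost by limma voom (0.168), with a replicate block (0.0653) and without CON 3, CON 5, ZXD 3 or ZXD 4 (up to 0.0826).

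Duct markers moved with these factors. Of 9 tested duct markers 5 rose and 0 fell in HFD versus CON, where 10.0% of all tested genes rose. Without HFD 2 and HFD 5, 2 rose. The summed level of the 10 listed was 49.5 to 68.9 CPM in CON, 111 to 188 CPM in HFD and 103 to 189 CPM in ZXD. Epcam, an adhesion protein of duct and progenitor cells, rose from 17.1 ± 2.94 to 53.1 ± 7.03 CPM in HFD (log2 fold change 1.64, SE 0.16, edgeR adjusted p = 1.95e-05). Anxa4 rose by 1.01 (SE 0.19, edgeR adjusted p = 0.00225) and Krt19 by 1.69 (SE 0.42, edgeR adjusted p = 0.0126, 0.103 without HFD 2 and HFD 5). In ZXD versus HFD edgeR called 0 of 8 factors and 0 of 9 markers, and DESeq2 called 0 of 8 factors and 1 of 9 markers, lower in ZXD. The part of duct cells in the levels of the 7 lineage factors was not tested.

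Relatives and regulators of C/EBP-alpha were not called by edgeR on the TMM scale. Of 4 tested, 0 were called in any comparison, beside 21.0% of all tested genes in HFD versus CON and 32.7% in ZXD versus CON. Their median was -0.16 in HFD versus CON. On library totals 1 rose in HFD versus CON, with a median of 0.26, and 1 in ZXD versus CON. DESeq2 called 1 higher in HFD versus CON, and 1 higher and 1 lower in ZXD versus CON. Cebpd, an acute-phase member of the family, was 10.5 ± 1.78 CPM in CON and 25.5 ± 15.3 in HFD (log2 fold change 1.28, SE 0.51, edgeR adjusted p = 0.0865). Trib1, which promotes the breakdown of C/EBP-alpha protein, was at -0.18 (SE 0.28, adjusted p = 0.655).

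Hepatocyte genes known to depend on these factors fell in 5 of 16 and rose in 0 in HFD versus CON, with a median of -0.71. Alb, Ttr, Tf, Apoa2, Cps1, Tat, Serpina1 and Hpx are also among the hepatocyte markers above, so the 2 lists are not independent. The markers that fell there, Alb, Ttr and Serpina1, are among those that fell here. Over all 13163 tested genes 10.9% fell and 10.0% rose. On library totals 5 of the 16 fell and 2 rose, with a median of -0.29, beside 505 lower and 5390 higher over all genes. Apoc3, an apolipoprotein gene driven by HNF4A, fell from 4320 ± 640 to 1450 ± 311 CPM (log2 fold change -1.57, SE 0.26, edgeR adjusted p = 0.000921). F9, coagulation factor IX, fell by 0.91 (SE 0.17, edgeR adjusted p = 0.00247), and Serpina1, alpha-1-antitrypsin, by 0.92 (SE 0.18, edgeR adjusted p = 0.00334). These 3 calls held under each alternative. In ZXD versus CON 6 of 16 fell and 0 rose, beside 14.8% lower and 17.9% higher over all tested genes. In ZXD versus HFD 0 were called. Whether any of these changes depends on a lineage factor was not tested.

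**Figure D4:**
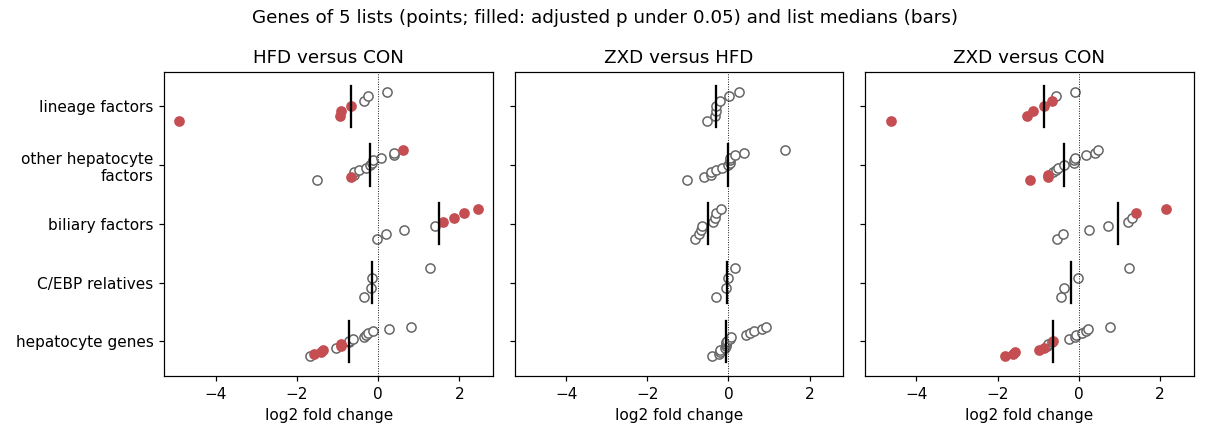
Log2 fold change (horizontal axis) of each gene in the lineage factors and 4 companion lists for the 3 comparisons; filled points had an edgeR adjusted p under 0.05 and bars are list medians. In HFD versus CON the biliary factors have a median of 1.5 and the hepatocyte genes one of -0.71, and no point is filled in ZXD versus HFD.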

How the data were processed

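Liver RNA was measured in 15 libraries, grouped and numbered by their titles. The authors deposited 1 table of 21576 genes with whole-number read counts and FPKM values, per the file headers. In the submitters' processing notes edgeR is named with no role or version. The sources used here do not give the aligner, counter, strand use, genome build or annotation, so table coordinates are not printed. The deposited FPKM values equalled count per gene length and library total in 100% of 228390 values above 0, within 0.01%, so they carry no further scaling.

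Counts were tested with edgeR 4.0.16 in R 4.3.3: TMM factors, filterByExpr (minimum count 10, minimum total 15; 13163 genes kept, 8413 left out), robust glmQLFit with group as the sole term (12 residual degrees of freedom), and Benjamini-Hochberg adjustment over all genes, called under 0.05. A count of 3 corresponded to 0.183 to 0.285 CPM, counting error only. Log2 CPM carries a prior count of 2. Ratios used exact permutation tests and correlations 100000 permutations within groups. A planned ratio to Cebpa of Cebpb, not analysed here, was not run. Alternatives used limma 3.58.1, DESeq2 1.42.0, library totals, RLE factors, other filters, a replicate block and left-out libraries. The fit was tested on simulated counts. In HFD versus CON it recovered 12.3% of 1.5-fold, 55.4% of 2-fold and 84.8% of 4-fold changes. The same shares were 11.9%, 44.8% and 87.9% in ZXD versus HFD and 15.4%, 45.5% and 84.4% in ZXD versus CON. A small change can therefore go uncalled.

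Named genes are all members, up to 3 called genes per companion list by adjusted p, and the 3 most alike in pattern to each member called in HFD versus CON, with a mean of at least 5 CPM. Sox9, Cebpd, Trib1 and those of ZXD versus CON were named after their values were seen. Members and lists were chosen with earlier results of these data known. No 2 libraries were identical.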

Additional observations from a re-analysis of the deposited data

Results flagged for a closer look

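The log2 ratio of Onecut2 to Onecut1 in ZXD 2 was 7.07, far above the other ZXD libraries at 4.83 to 5.40, with a gap of 0.746 of the group's range against a critical value of 0.710 for 5 values. Onecut1 stood at 2.10 CPM and Onecut2 at 303.5 CPM there, the lowest and the highest of the ZXD group. Of 33 groups of values examined this was the 1 flagged, where chance flags about 1 in 20. Without ZXD 2 the ratio difference between ZXD and CON was 3.65 (exact permutation, adjusted p = 0.0476).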

How the results depend on the processing

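Across 24 alternatives the falls of Onecut1 against CON kept their call, and those of Cebpa and Foxa1 in ZXD versus CON did too. On library totals 1 member was lower in HFD versus CON (4 with TMM) and 3 in ZXD versus CON (5 with TMM). Genes called overall were then 5390 higher and 505 lower, 5895 in all, in HFD versus CON (TMM 1322 and 1436, 2758 in all), and 6046 higher and 628 lower, 6674 in all, in ZXD versus CON (TMM 2356 and 1943). There the log2 fold change changed sign for Hnf4a (0.16) and Foxa2 (0.07) in HFD versus CON and Foxa3 (0.32) in ZXD versus CON. Without HFD 2 and HFD 5 there was 1 lower member and 1043 genes called in HFD versus CON, with Hnf4a at 0.03; the Onecut2 to Onecut1 ratio difference was 4.25 (adjusted p = 0.0536) and that of Foxa1 to Foxa2 -0.71 (adjusted p = 0.0857), where 5 against 3 libraries allow fewer splits. In ZXD versus HFD, DESeq2 called 348 genes against 0. Values near 0 in ZXD versus HFD changed sign: Onecut2 was -0.03 by limma voom, -0.12 without HFD 2 and HFD 5, 0.00 with those groups alone and -0.17 to 0.19 with 1 library left out; Onecut1 was -0.18 without HFD 2 and HFD 5 and -0.13 to 0.86 with 1 library left out; the Cebpa to Hnf4a ratio was 0.13 without HFD 2 and HFD 5. Apart from the settings whose construction shows it, the cause was not tested.

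With 1 library left out, genes called were 1697 to 3235 in HFD versus CON, 3037 to 4680 in ZXD versus CON and 0 to 7 in ZXD versus HFD. The count in HFD versus CON was 1734 without CON 3, 1822 without CON 4, 1697 without HFD 2 and 1730 without HFD 5. Foxa3 in ZXD versus CON was -0.29 to 0.04. The Foxa1 to Foxa2 ratio in HFD versus CON was -0.77 to -0.53, and the Cebpa to Hnf4a ratio was -0.76 to -0.52 in HFD versus CON, -0.80 to -0.56 in ZXD versus CON and -0.12 to 0.05 in ZXD versus HFD. The labels do not say whether replicate numbers pair libraries. Same-numbered libraries correlated at -0.55 to 0.26 after removing group means, over 0.1 in 4 of 15 pairs. Of 15 libraries, 4 correlated best with their own number. These are descriptions without a test and cannot settle whether libraries were paired. With a replicate block 1909 genes were called in HFD versus CON, Onecut2 lost its call there (adjusted p = 0.0625), and Onecut2 was -0.02 in ZXD versus HFD. With the numbers as pairs, exact sign-flip permutation tests cannot go under p = 0.0625 and gave the Onecut2 to Onecut1 differences of 4.54 and 4.02, the Foxa1 to Foxa2 difference of -0.66 and the Cebpa to Hnf4a difference of -0.68 adjusted p of 0.188, 0.188, 0.188 and 0.250. The Onecut2 and Cebpa correlation was 0.70 on library totals (permutation, adjusted p = 0.0679).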

Other observations

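Most duct markers stood lower in ZXD than in HFD livers, without passing edgeR's test over all genes. Of the 9 tested, 2 went the other way, Spp1 (log2 fold change 0.83) and Anxa4 (0.06). The summed levels of the 10 listed overlapped, at 111 to 188 CPM in HFD and 103 to 189 CPM in ZXD. Krt19 was 6.73 ± 3.23 CPM in HFD and 2.76 ± 0.845 in ZXD (SD, n = 5), a log2 difference of -1.28 (SE 0.41, edgeR adjusted p = 0.183). Epcam was 53.1 ± 7.03 CPM in HFD and 35.6 ± 7.91 in ZXD (-0.58, SE 0.16, adjusted p = 0.155), and against CON it was higher in ZXD by 1.06 (SE 0.16, edgeR adjusted p = 0.000565). The 9 duct markers tested had a median of -1.12 in ZXD versus HFD, -0.47 without HFD 2 and HFD 5. EdgeR called 0 of the 9, and DESeq2 called 1 lower, Epcam (-0.59, DESeq2 adjusted p = 0.0376).

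The genes most like Hnf4a over the 15 libraries were Trim14, Slco2b1, a hepatic uptake transporter, and Herpud1, an endoplasmic reticulum stress gene (r = 0.947, 0.945 and 0.942). With group means removed their r was 0.96, 0.94 and 0.91, so the likeness held among livers of the same group. These are descriptions without a test, named after their values were seen.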
